A study of Mus musculus with 4 samples.

Results

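The genes described here are those of the circadian clock, the cell-autonomous timer that gives many liver transcripts a daily rhythm. They were chosen by name, as 10 listed genes, and a gene was measured where GEO's platform annotation gave an array row that gene symbol alone. Of the 10 genes, 9 had such a row (Arntl, Clock, Per1, Per2, Per3, Cry1, Nr1d1, Dbp and Ciart), out of 19938 genes on the array, and Npas2 was not analysed here. A gene with several rows was represented by its brightest, on average, which concerned only Ciart among the clock genes.

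Liver RNA of mice labelled male and 8 weeks old was measured on 4 whole-transcript microarrays, 1 for each genotype. The groups were a wild-type control, a knockout of MDR2, a knockout of GHR, and a double knockout of GHR and MDR2, called here wild-type, MDR2-null, GHR-null and, for the last, double-null, and each array carried RNA pooled from 3 livers. MDR2 is the protein of Abcb4, which exports phospholipid into bile and whose loss causes cholestasis and liver fibrosis, and GHR is the growth hormone receptor. Neither the time of day at dissection, nor feeding before it, nor whether GHR was lost in the whole body or in liver alone is given in the sources used here. With 1 pool per genotype, a different hour of collection and a different genotype cannot be told apart in any comparison of clock genes below.

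In the clock, the proteins of Arntl (BMAL1) and of Clock bind E-boxes and switch on the genes Per1, Per2, Per3, Cry1, Nr1d1, Dbp and Ciart. The PER and CRY proteins, and the Ciart product CHRONO, then repress that pair, which closes the main loop. Nr1d1 encodes REV-ERB alpha, which represses Arntl, Clock, Cry1 and Nfil3 through RORE sites, while DBP activates genes through D-boxes that the Nfil3 product E4BP4 represses. In mouse liver Arntl transcripts peak around the end of the night, Nr1d1 and Dbp by day, the Per genes around dusk and Cry1 late at night, so a level at a single time depends on the hour.

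Those 3 kinds of site appear in the promoters of the clock genes as RefSeq places them (assembly GRCm38.p6, from 250 bases before to 50 bases after a transcript start). They are shown because each gene below is described by the factor that acts on it. A window was found for 8 of the 9 measured genes, 12 windows in all, and not for Per2. Both strands were searched for the E-box CACGTG, for the D-box TTATGTAA or TTACGTAA, and for TAGGTCA, the core of a RORE. Of all 32851 windows in the table, 7.15% hold that E-box, 1.06% that D-box and 2.61% that RORE core. Among the clock genes the E-box was found in 3, the D-box in 1 and the RORE core in 1, and capitals mark the matches in these stretches, 5′ to 3′ on the gene's strand. Ciart (chr3:95882247-95882364, minus strand) has 3 E-boxes, which 0.0883% of windows match or exceed. Per1 (chr11:69098763-69098808, plus strand) and Cry1 (chr10:85185089-85185134, minus strand) have 1 each. Per3 (chr4:151044796-151044890, minus strand) has 2 D-boxes, and 0.0244% of windows hold 2 or more. Arntl (chr7:113207530-113207559, plus strand) has the RORE core 30 bases after its second listed start. The repressor gene Nfil3 (chr13:52981040-52981071, minus strand), a further clock gene, has it on the opposite strand, 12 bases before its start. Nfil3 is the only further clock gene printed, though others were searched. Among them Bhlhe41 and Tef hold the E-box and Timeless the D-box, and none but Nfil3 holds the RORE core. A match is a description of these letters, and no binding was measured.
Ciart: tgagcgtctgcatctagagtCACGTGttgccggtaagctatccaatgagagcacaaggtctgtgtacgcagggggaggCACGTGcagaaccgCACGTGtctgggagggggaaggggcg
Per1: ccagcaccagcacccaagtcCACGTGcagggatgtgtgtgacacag
Cry1: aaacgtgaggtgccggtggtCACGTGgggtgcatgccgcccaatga
Per3: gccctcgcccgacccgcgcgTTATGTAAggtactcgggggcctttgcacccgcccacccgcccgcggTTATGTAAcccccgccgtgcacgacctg
Arntl: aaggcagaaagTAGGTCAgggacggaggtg
Nfil3: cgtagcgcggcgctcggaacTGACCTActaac

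The arrays were checked first. Intensity medians over rows with 1 symbol ran from 94 to 105; precision is limited by there being so few arrays. Ghr was 4944 and 4485 in the wild-type and MDR2-null pools against 1395 and 935 in the GHR-null and double-null pools, and Abcb4 was 1120 and 1346 in the wild-type and GHR-null pools against 663 and 689 in the MDR2-null and double-null pools. The X-inactivation RNA Xist was 1400 in GHR-null liver and 16 to 18 in the other three, although all 4 pools are labelled male, so every comparison with the GHR-null pool carries that difference, while the comparison of the double-null with the MDR2-null pool does not. Genes of the Y chromosome (Uty, Kdm5d, Eif2s3y) were at 212 or more in every pool. Where the probes of Ghr and Abcb4 lie relative to the deleted parts was not examined. The 11 measured hepatocyte markers summed to 117764 to 123897 in the 4 pools. Of the other cell types, 7 of 8 lymphocyte and 6 of 7 neutrophil markers were under an intensity of 100 on every array, and no marker was at 0, since the lowest deposited intensity was 6.

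Pairwise differences are log2 ratios of intensities of single arrays, with no replicate behind them and so no p-value. A gene counts as apart at 1.5-fold or more where the higher of both arrays reached an intensity of 100, the median over all rows with 1 symbol. A yardstick for small gaps is 0.23, the robust SD of a pairwise log2 difference of a typical gene, derived from how far the 4 arrays depart from additivity. The only test was limma, fitted to the 4 arrays and 10764 genes with an added term for each lost gene, which leaves 1 residual degree of freedom per gene and assumes the same effect in both backgrounds. The limma effects of both losses draw on the GHR-null array, so they carry the Xist difference too.

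**Figure D1:**
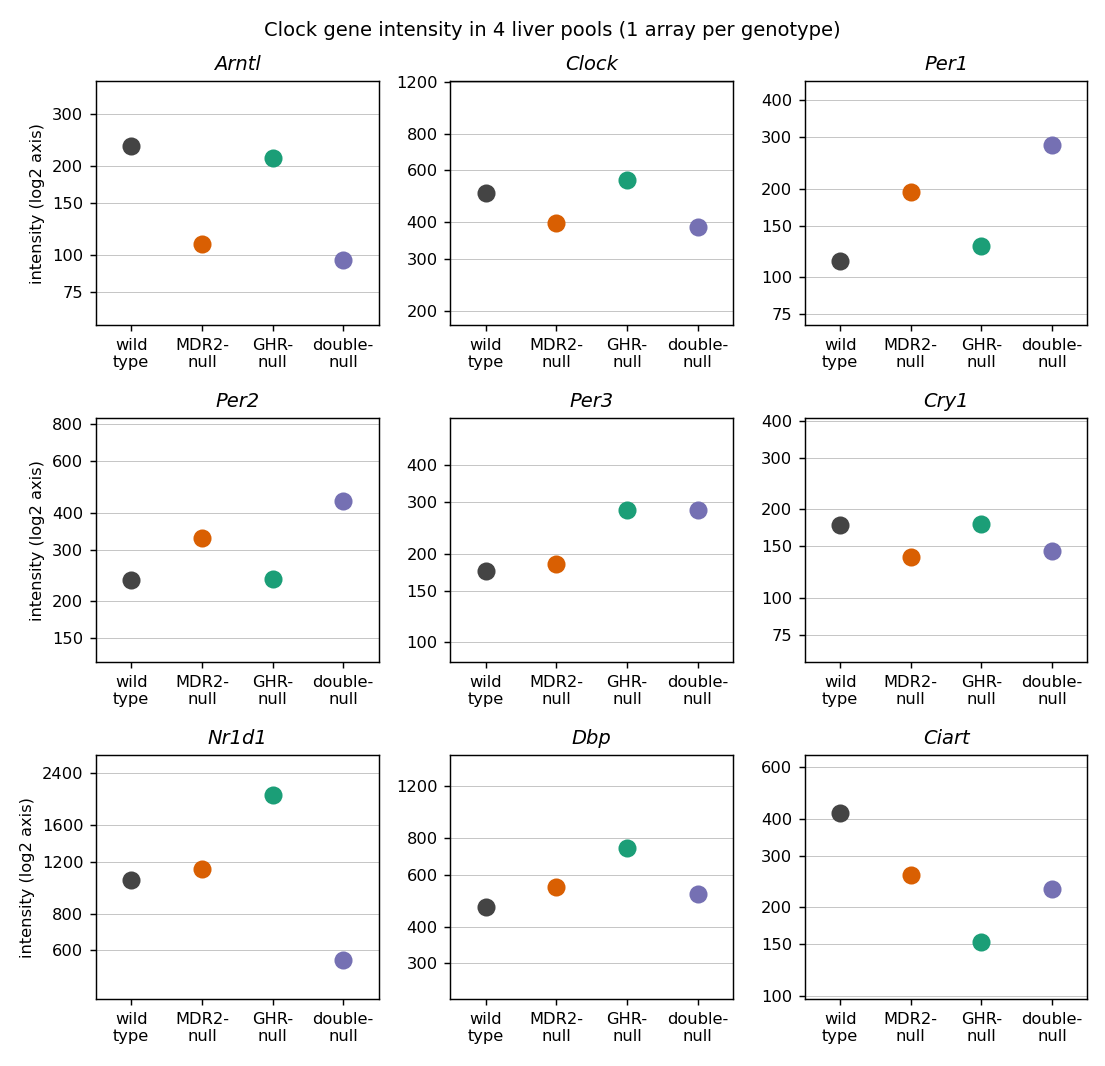
Intensity (log2 axis, 1 panel per gene, every panel spanning the same ratio) of the 9 measured clock genes in the pool of each genotype, 1 point per array. Arntl is low and Per1 and Per2 are high in both pools without MDR2, Per3 is high in both pools without GHR, and Nr1d1 is highest at 2030 in the GHR-null and lowest at 556 in double-null liver.

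Loss of MDR2 went with less Arntl and more Per1. Arntl, the activator BMAL1, was 234 in wild-type, 213 in GHR-null, 109 in MDR2-null and 96 in double-null liver. Both pools without MDR2 lay below both pools with it, the gap being 0.97 on the log2 scale, while the pools within each pair were 0.14 and 0.18 apart, less than the yardstick. The double-null level is under 100 and was not shown to be above background. Arntl was 2.15-fold lower in MDR2-null than in wild-type liver. No fold is given for the double-null level, which also enters the limma fit. In that fit Arntl fell with MDR2 loss by 1.13 on the log2 scale (SE 0.137, adjusted p = 0.0292, Benjamini-Hochberg).

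Per1, a period gene that also responds acutely to stress signals and glucocorticoids, was 114 in wild-type, 128 in GHR-null, 195 in MDR2-null and 281 in double-null liver. Its order over the genotypes was the reverse of that of Arntl, but its levels were less tightly paired. The wild-type and GHR-null pools were 0.17 apart, the MDR2-null and double-null pools 0.53, and the gap between the pairs was 0.61. Per1 was 1.71-fold higher in MDR2-null than in wild-type liver and 2.20-fold higher in double-null than in GHR-null liver. In the limma fit Per1 rose with MDR2 loss by 0.95 (SE 0.157, adjusted p = 0.0433). Both calls ended without the level filter, where the limma adjusted p was 0.327 for Arntl and for Per1, and that of Per1 also ended with cyclic loess between arrays (adjusted p = 0.0571).

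Per2, the period gene that carries much of the repression, followed Per1 in order but did not pass the test. It was 237 in wild-type, 239 in GHR-null, 329 in MDR2-null and 440 in double-null liver. Its limma effect of MDR2 loss was 0.68 (SE 0.163, adjusted p = 0.0901). Centring the arrays on hepatocyte markers brought it past the threshold, with a limma adjusted p of 0.0468. Among 10446 genes ranked by how closely their centred log2 profile over the 4 arrays followed that of Per1, Per2 stood at rank 174, with a root mean square distance of 0.15.

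Clock and Cry1 had small differences in the direction of Arntl. Clock, the partner of BMAL1, was 503 in wild-type, 558 in GHR-null, 397 in MDR2-null and 386 in double-null liver. Its limma effect of MDR2 loss was -0.44 (adjusted p = 0.153), and no pairwise fold reached 1.5. Cry1, a cryptochrome repressor, was 177, 179, 138 and 145 in the same order of pools, with a limma effect of MDR2 loss of -0.33 (adjusted p = 0.226). For both genes the pools without MDR2 lay below those with it, but by amounts that the test did not pass.

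Over the whole list, the clock genes had no common direction after MDR2 loss. Between the MDR2-null and wild-type pools 3 of 9 were apart (Arntl and Ciart lower, Per1 higher), where 9.69% of 10258 genes were (6.11% higher, 3.58% lower). Of all genes apart there, 63.1% were higher, and 83.1% with hepatocyte centring. The median log2 difference of the 9 genes was 0.08, against -0.04 over the genes passing the level filter. Between the double-null and GHR-null pools 5 of 9 were apart (Arntl and Nr1d1 lower, Per1, Per2 and Ciart higher), where 19.9% of 10514 genes were (9.99% higher, 9.94% lower), with a median of -0.30 against -0.06. In the limma fit 2 of 9 clock genes were called for MDR2 loss, 1 in each direction, against 3.75% of all genes tested (2.99% higher, 0.762% lower). The direction of the MDR2 difference was the same in both backgrounds for 6 of 9 clock genes and for 69.5% of the genes passing the filter, so that share was close to the background.

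**Figure D2:**
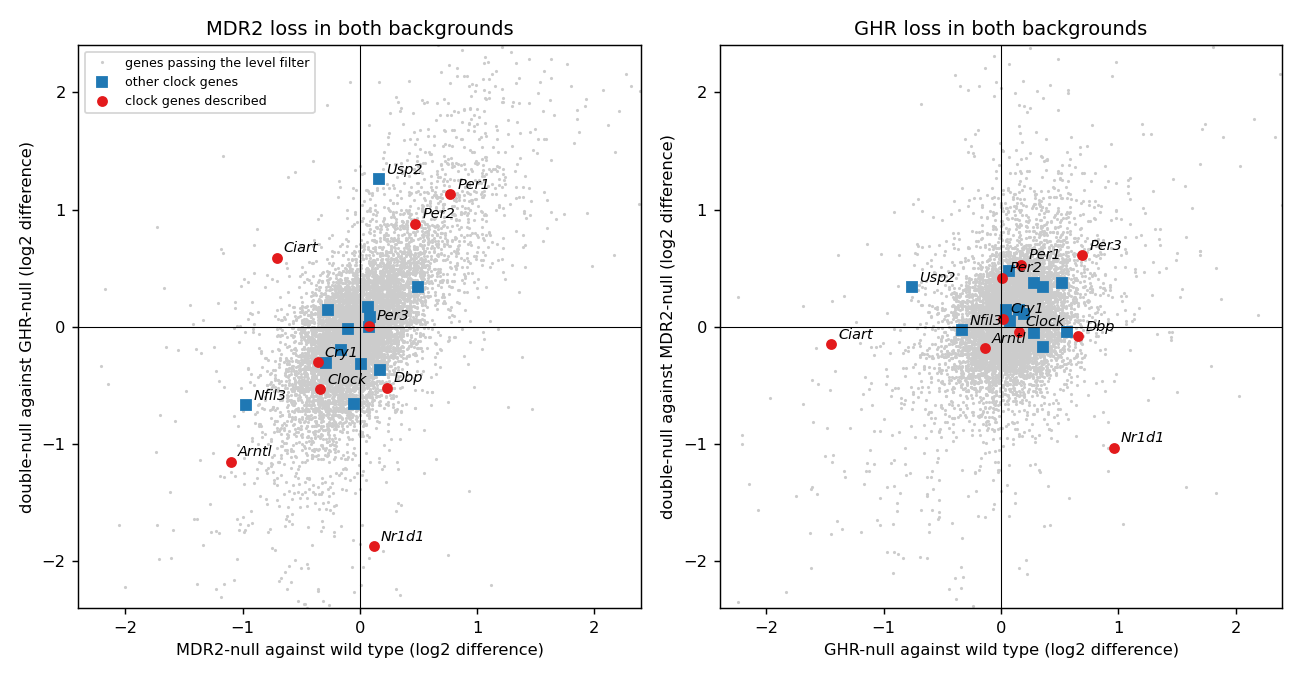
Log2 difference with MDR2 loss (left) and with GHR loss (right), with the other gene intact on the x axis and lost on the y axis, for 9 clock genes (red), 13 other clock genes (blue squares) and all 10764 genes passing the level filter (grey). Both axes of a panel rest on different arrays and stop at 2.4, which leaves some grey points outside; Arntl lies low on both axes on the left, and Nr1d1 lies at 0.96 and -1.03 on the right.

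Loss of GHR went with higher Per3 in both backgrounds, and with differences of Nr1d1, Dbp and Ciart that were not the same in both. Per3, a period gene with weak repressor activity, was 175 in wild-type and 185 in MDR2-null liver against 282 in GHR-null and 283 in double-null liver. The gap between both pairs was 0.61, and within the pairs the levels differed by 0.08 and 0.01. The limma effect of GHR loss was 0.65 (SE 0.138, adjusted p = 0.191), so it did not pass the test, although it was the smallest p of the 9 genes for GHR loss. Folds were 1.61 for GHR-null against wild type and 1.53 for double-null against MDR2-null, and with arrays centred on the median of genes both were under 1.5.

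Nr1d1, the repressor of Arntl, was 1042 in wild-type, 1136 in MDR2-null, 2030 in GHR-null and 556 in double-null liver. It was thus 1.95-fold higher in GHR-null than in wild-type liver and 2.04-fold lower in double-null than in MDR2-null liver. The departure from additivity was -1.99 on the log2 scale, and 70 of 10764 genes (0.65%) departed as far in either direction. This difference of differences has no test with 1 array per genotype. The additive limma effects of Nr1d1, -0.03 for GHR loss (adjusted p = 0.982) and -0.87 for MDR2 loss (adjusted p = 0.314), average over opposed differences. The pool in which Nr1d1 stood at 2030 is the pool with Xist at 1400. In double-null liver Nr1d1 was 0.91 below the next pool, and its target Arntl was there at 96, not distinguishable from its MDR2-null level.

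Dbp, a transcription factor of D-boxes and one of the transcripts with the widest daily swing in liver, was 468 in wild-type, 547 in MDR2-null, 740 in GHR-null and 517 in double-null liver. Only the GHR-null pool stood apart, 0.44 above the next, and the other three pools lay within 0.23 of each other. Dbp was 1.58-fold higher in GHR-null than in wild-type liver and 1.06-fold lower in double-null than in MDR2-null liver, a departure from additivity of -0.74 that 6.99% of genes matched or exceeded. Dbp and Nr1d1, both E-box targets that peak by day, were thus both highest in GHR-null liver.

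Ciart, whose product represses BMAL1 and CLOCK, was 419 in wild-type, 257 in MDR2-null, 153 in GHR-null and 231 in double-null liver. The wild-type pool was highest, and the GHR-null pool, where Nr1d1 and Dbp were highest, was lowest. Ciart was 2.74-fold lower in GHR-null than in wild-type liver, a difference that 1.11% of 10052 genes matched or exceeded. The double-null was 1.11-fold below the MDR2-null pool, and the departure from additivity was 1.30, matched or exceeded by 199 of 10764 genes (1.85%). A second row annotated to Ciart read 134, 100, 67 and 82 in the same order of pools. The order of the pools was the same in both rows, but the MDR2-null difference from wild type was -0.42 in the second row against -0.71 in the first, and in GHR-null and double-null liver the second row was under 100. The row used lies by identifier between rows of Zc3h10 and Pa2g4, which are on another chromosome than Ciart in RefSeq, whereas the second row lies between rows of its neighbours Mrps21 and BC028528. What the probes of the brighter row detect was not tested.

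Counted over the list, GHR loss set 4 of 9 clock genes apart with MDR2 intact (Per3, Nr1d1 and Dbp higher, Ciart lower), where 6.73% of 10052 genes were apart (4.26% higher, 2.48% lower), and the median difference was 0.15 against 0.10. With median centring the count was 2, Nr1d1 and Ciart. Of the genes apart over the whole array, 63.2% were higher in GHR-null liver, a share that was 41.5% with median centring and 84.0% with hepatocyte centring. With MDR2 lost, 2 of 9 were apart (Per3 higher, Nr1d1 lower), where 11.1% of 10524 genes were (7.17% higher, 3.89% lower), and the median was -0.04 against 0.06. Of the genes apart over the whole array, 64.9% were higher in double-null than in MDR2-null liver, and 49.3% with median centring. For GHR loss limma called 0 of 9 clock genes, against 0.52% of 10764 genes, and at an unadjusted p under 0.05 limma gave 2 of 9 (Per3 and Ciart), against 13.1%.

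In the double-null against the wild-type pool 6 of 9 clock genes were apart, where 21.3% of 10487 genes were (13.7% higher, 7.59% lower). Per1, Per2 and Per3 were higher, by 2.46-fold, 1.86-fold and 1.62-fold. Nr1d1 and Ciart were lower, by 1.87-fold and 1.81-fold, and Arntl was lower at 96 against 234, with no fold given. Every period gene was thus above and both Arntl and Nr1d1 below their wild-type levels in this pool, whereas Clock, Cry1 and Dbp were within 1.5-fold. The median of the 9 differences was -0.29, against 0.01 over the genes passing the filter. This comparison and those of the single losses share the wild-type array. At a 2-fold threshold 1 clock gene was apart for MDR2-null against wild type (3.11% of all genes), 1 for GHR-null against wild type (2.05%), 1 for double-null against MDR2-null (3.87%), 2 for double-null against wild type (9.85%) and 3 for double-null against GHR-null (7.82%). Of all genes apart, 64.4% were higher in double-null liver, and 76.5% with hepatocyte centring.

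Of 19 other clock genes listed, 17 were measured. Of these, 13 reached an intensity of 100 on some array, and Rorb, Bhlhe41, Arntl2 and Timeless did not. None of the 13 passed the limma test for either loss, with 2 at an unadjusted p under 0.05 for GHR loss (Csnk1e and Fbxl21) and 3 for MDR2 loss (Nfil3, Csnk1e and Usp2). Over all genes tested 13.1% and 23.6% had such a p for GHR and MDR2 loss, so these counts were near the background. Nfil3, the repressor at D-boxes, was 426 in wild-type, 339 in GHR-null, 217 in MDR2-null and 213 in double-null liver. Like Arntl it was lower in both pools without MDR2, with a limma effect of -0.82 (SE 0.152, adjusted p = 0.0535). Over the other settings its limma adjusted p ran from 0.038 with hepatocyte centring to 0.327 without the level filter. It was 0.0459 with limma's trend and robust settings and 0.0465 with the mean of all rows, and 0.0664 with median centring, 0.0784 with cyclic loess and 0.0801 at the higher level filter. Arntl and Nfil3 are known targets of REV-ERB alpha and hold the RORE core printed above. Clock and Cry1, the other targets named above, hold none in their windows. Nr1d1 itself was 1042 in wild-type, 1136 in MDR2-null, 2030 in GHR-null and 556 in double-null liver. In GHR-null liver, where Nr1d1 was highest, Arntl was 213 and Nfil3 was 339. A part of REV-ERB alpha in these levels was not tested.

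Usp2, a deubiquitinase with a strong daily rhythm, was 333 in wild-type, 371 in MDR2-null, 196 in GHR-null and 471 in double-null liver. Like Ciart, it was lowest in GHR-null liver, 1.70-fold below wild type. Cry2, the second cryptochrome, was 349, 337, 516 and 327 in that order of pools and so, like Nr1d1 and Dbp, highest in GHR-null liver. Csnk1e, a casein kinase that phosphorylates PER proteins, was 187, 264, 269 and 341, higher with either loss and highest with both. The REV-ERB beta gene Nr1d2, the related activator gene Rora, the kinase genes Csnk1d and Gsk3b and the D-box factor Hlf had ranges over the 4 pools of 0.20 to 0.32 on the log2 scale. Tef, another D-box factor, Bhlhe40, a repressor at E-boxes, and the F-box genes Btrc and Fbxl21 had ranges of 0.37 to 0.65. The near constancy of Nr1d2, at 895, 949, 1029 and 1026 in the order used for Usp2, contrasts with the 1.87 range of its paralogue Nr1d1. The number of other clock genes apart was 1 of 13 for MDR2-null against wild type (Nfil3, lower), where 9.69% of all genes were apart, and 1 for GHR-null against wild type (Usp2, lower), where 6.73% were. It was 0 for double-null against MDR2-null, where 11.1% were, and 2 for double-null against wild type (Csnk1e higher, Nfil3 lower), where 21.3% were. For double-null against GHR-null it was 3 (Usp2 higher, Cry2 and Nfil3 lower), where 19.9% were.

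**Figure D3:**
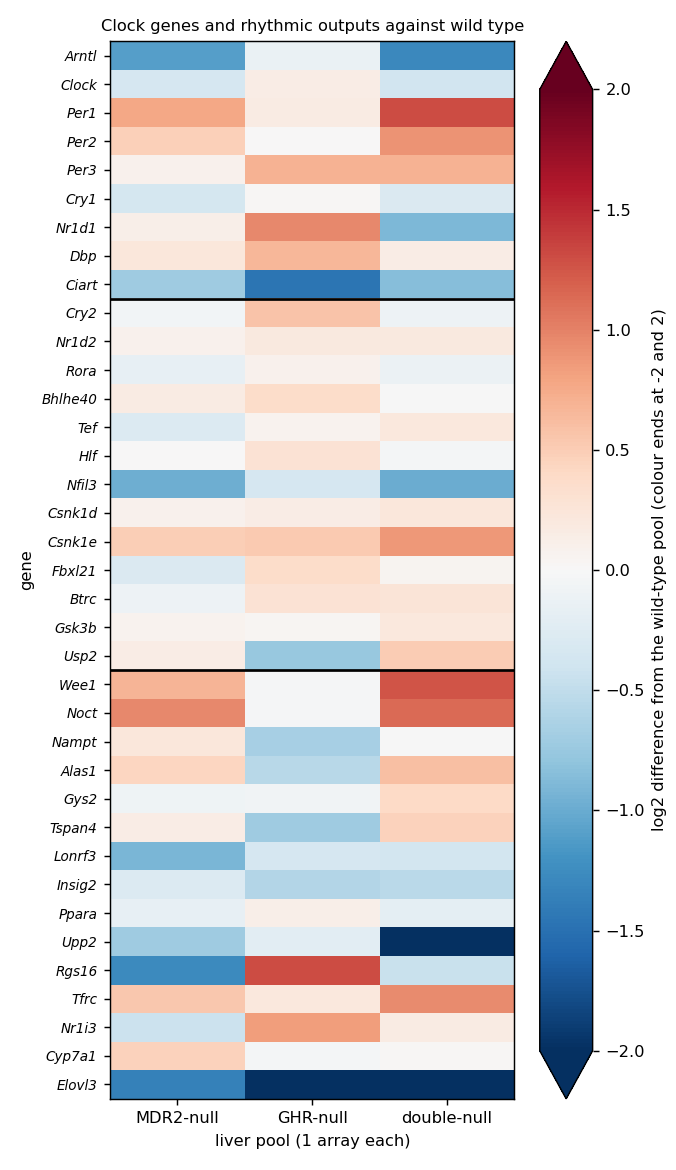
Log2 difference from the wild-type pool in MDR2-null, GHR-null and double-null pools (columns, 1 array each) for the 9 clock genes, 13 other clock genes and 15 rhythmic liver output genes (rows, in that order, separated by lines), with colours ending at -2 and 2. Arntl and Nfil3 are blue in both columns without MDR2, and Nr1d1 turns from red in the GHR-null to blue in the double-null column.

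Known rhythmic outputs of the liver clock were measured for 15 of 17 listed genes. The limma fit called 1 of 15 higher and 1 lower with MDR2 loss, and 0 higher and 1 lower with GHR loss. Over all genes it called 2.99% higher and 0.762% lower with MDR2 loss, and 0.204% and 0.316% with GHR loss. The unadjusted limma p was under 0.05 for 10 of 15 with MDR2 loss (23.6% of all genes) and 6 with GHR loss (13.1%). Rgs16, a regulator of G protein signalling with a rhythm set by feeding, was 650 in wild-type, 269 in MDR2-null, 1613 in GHR-null and 479 in double-null liver. It fell with MDR2 loss by 1.51 in the limma fit (SE 0.172, adjusted p = 0.0272). Noct, the deadenylase-related Nocturnin that peaks in the evening, was named after its values were seen, as the single output called higher. It was 232, 453, 228 and 511 in the same order and rose by 1.06 (SE 0.143, adjusted p = 0.0325). Wee1, a cell cycle kinase and E-box target, was 252, 404, 249 and 604, the order of Per1 and Per2 at the top, with a limma effect of MDR2 loss of 0.98 (adjusted p = 0.0569). Upp2, a rhythmic uridine phosphorylase, was 2186, 1331, 1886 and 504, lowest in double-null liver. The called output for GHR loss was Elovl3, a REV-ERB target that is also a known male-biased gene of growth hormone action, at 2806, 1103, 28 and 24 (adjusted p = 0.00434 in the limma fit). Its levels in both pools without GHR are under 100, so no fold is given.

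Per1 is also known as a gene that responds quickly to stress, temperature and hormones, so other genes of such responses are given from the same arrays. Immediate early genes summed to 2265 in wild-type, 3298 in MDR2-null, 2229 in GHR-null and 4631 in double-null liver, the order of Per1 apart from the lowest pair. Of 10 tested, limma called 3 higher with MDR2 loss: Nr4a1, which was named after its values were seen, Jun, at 439, 934, 289 and 1389 in the same order of pools, and Atf3, at 84, 210, 118 and 296. With GHR loss limma called 1, Egr1, at 112, 201, 310 and 480. Over all genes tested limma called 2.99% higher with MDR2 loss and 0.204% higher with GHR loss. Unadjusted limma p was under 0.05 for 6 of these 10 with MDR2 loss and 3 with GHR loss (23.6% and 13.1% of all genes). Of the heat-induced and cold-induced genes, which summed to 12113, 15134, 12281 and 18294, limma called 1 of 8 higher with MDR2 loss, the small heat shock gene Hspb1 at 176, 373, 90 and 278. The cold-induced Rbm3 was 1371, 1788, 1567 and 3679. Of the 8 heat-induced and cold-induced genes, 5 had an unadjusted limma p under 0.05 for MDR2 loss and 3 for GHR loss. Genes raised by glucocorticoids summed to 21584, 20699, 21969 and 23908, with 0 of 8 called by limma for either loss (4 for GHR and 2 for MDR2 loss at an unadjusted p under 0.05, against 13.1% and 23.6% of all genes). Fkbp5 was 322, 211, 171 and 415 and Zbtb16 was 417, 317, 255 and 677, both highest in double-null liver. The metallothionein genes Mt1, at 883, 544, 1892 and 1308, and Mt2, at 3599, 2000, 5599 and 4225, were highest in GHR-null liver. The genes raised by glucocorticoids thus had no common order over the 4 pools. Of the 8, 5 were at least 1.5-fold higher in double-null than in MDR2-null liver, and 0 were as far lower. Over all genes 7.17% were that far higher and 3.89% lower. The median log2 difference of the 8 was 0.83 there, against 0.06 over the genes passing the filter. In MDR2-null against wild-type liver 0 of the 8 were higher and 3 lower by that fold. The part of all these genes in the levels of Per1 and of the other clock genes was not tested.

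Feeding-related genes differed between the pools too. The 7 measured genes raised by feeding summed to 14607 in wild-type, 10523 in MDR2-null, 13397 in GHR-null and 4905 in double-null liver, with 0 of 7 called by limma for either loss. At an unadjusted p under 0.05 limma gave 3 of 7 for GHR loss and 7 of 7 for MDR2 loss, against 13.1% and 23.6% of all genes. The lipogenic regulator Thrsp was 3449, 2796, 2274 and 113, and the fatty acid synthase gene Fasn was 4193, 2720, 4563 and 1490. Genes raised by fasting summed to 11828, 13136, 12361 and 12999. Of 7 tested, limma called 1 for GHR loss, Igfbp1, at 308, 353, 1208 and 3284 (adjusted p = 0.049), where it called 0.52% of all genes. At an unadjusted p under 0.05 limma gave 4 of these 7 for GHR loss and 1 for MDR2 loss, against the same 13.1% and 23.6%. The coactivator gene Ppargc1a, which also acts on Arntl, was 287, 228, 606 and 542, and the glucose-6-phosphatase gene G6pc was 4661, 4743, 3488 and 1487. The sum of the feeding-raised genes was lowest in double-null liver, where Nr1d1 was lowest too. Of the 7 genes 6 were lowest there, and Pnpla3, at 175, 114, 252 and 165 and named after its values were seen, was lowest in MDR2-null liver. Their part in the clock gene levels was not tested.

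**Figure D4:**
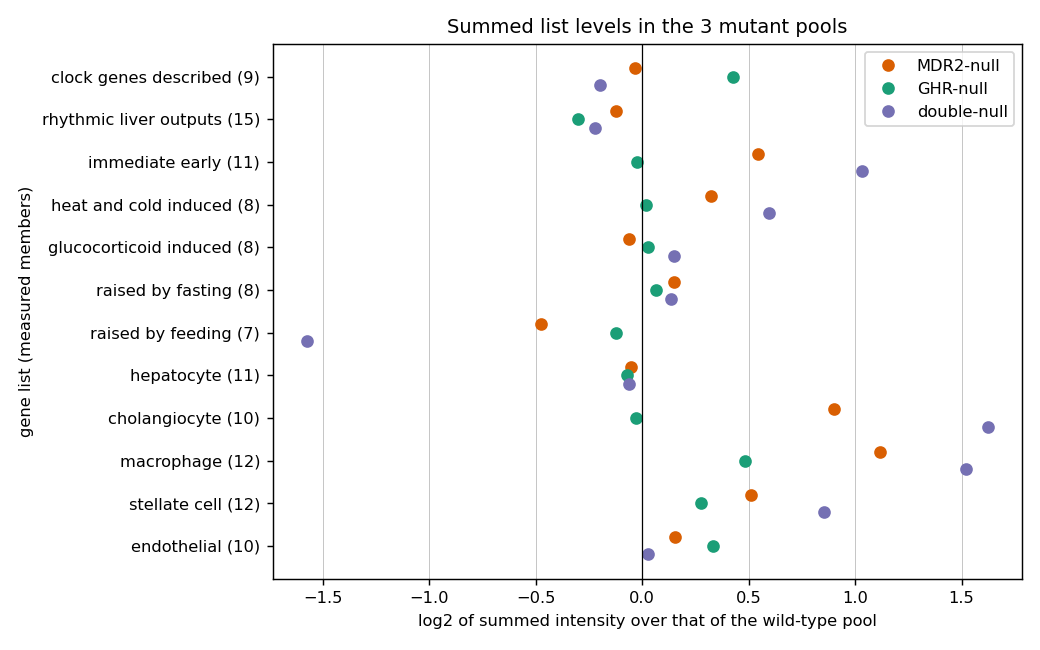
Log2 ratio of the summed intensity of each gene list to its sum in wild-type liver, for the MDR2-null, GHR-null and double-null pools (coloured points, 1 array each), with the number of measured genes in parentheses. Hepatocyte markers stay close to 0, cholangiocyte, macrophage, stellate cell and immediate early genes lie to the right in both pools without MDR2, and feeding-raised genes lie far to the left in double-null liver. A sum is led by its most intense rows.

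The summed markers of cholangiocytes, macrophages and stellate cells were higher in both pools without MDR2, and those of endothelial cells were not. The 10 measured cholangiocyte markers summed to 1173 in wild-type, 1150 in GHR-null, 2188 in MDR2-null and 3620 in double-null liver, and limma called 2 of 10 higher with MDR2 loss (Cldn7 and Cdh1, named after their values were seen). The 12 macrophage markers summed, in that order of pools, to 3980, 5566, 8625 and 11428, with 4 of 11 tested called higher (Ccr2 and Lyz2, with Cd68 and Csf1r named after their values were seen), and the 12 stellate cell markers, in the same order, to 6289, 7630, 8954 and 11374, with 5 of 12 called higher (Lum, Col1a1, Col1a2 and Pdgfrb, with Col3a1 named after its values were seen). The 10 endothelial markers summed, again in that order, to 6122, 7713, 6812 and 6246. Limma called 0 of them for either loss, and 0 had an unadjusted p under 0.05. Over all genes tested, limma called 2.99% higher and 0.762% lower with MDR2 loss, and 0.52% either way with GHR loss. The unadjusted limma p was under 0.05 for 23.6% of all genes with MDR2 loss and 13.1% with GHR loss. With MDR2 loss it was under 0.05 for 9 of 10 cholangiocyte, 8 of 11 macrophage and 7 of 12 stellate cell markers. With GHR loss it was so for 2, 3 and 3 of them. The bile duct gene Epcam was 48, 40, 113 and 329, and the macrophage lysozyme gene Lyz2 was 847, 977, 2879 and 5243. In bulk RNA a change in the number of cells of a type and a change in RNA per cell cannot be told apart, and the part of these cells in the clock gene levels was not tested. The Kupffer cell markers Clec4f, Timd4 and Cd5l, in the macrophage list, were named after their values were seen. Their limma effects of MDR2 loss were -0.14, -0.07 and 0.01 (adjusted p = 0.794, 0.878 and 0.987). These effects average opposed differences, as each gene was higher in MDR2-null than wild-type liver and lower in double-null than GHR-null liver. Clec4f was 677 in wild-type, 993 in GHR-null, 885 in MDR2-null and 628 in double-null liver. Vsig4, of the same list and also named after its values were seen, was 666, 1075, 1578 and 1426 in that order. Its limma effect of MDR2 loss was 0.83 (adjusted p = 0.113).

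The genes with the profile nearest to a clock gene are given for the 4 clock genes whose levels spanned at least 1 log2 unit, as the 3 with the smallest root mean square distance over the 4 arrays among 10446 genes. With 4 arrays many genes lie close, and the distance describes likeness only. Nearest to Arntl were Syde2 (188 in wild-type, 88 in MDR2-null, 182 in GHR-null and 77 in double-null liver), Albfm1 and Amt, at distances of 0.04, 0.06 and 0.09. Nearest to Per1 were Tbc1d9, Ncf1 and Myh10, at 0.02, 0.03 and 0.03. Nr1d1 had no gene as close. Its nearest were Tm6sf2 (1085, 1344, 1984 and 668), Cda and Slc25a21, at 0.13, 0.16 and 0.17. Nearest to Ciart were Acta1, Celsr1 and Snord82, at 0.12, 0.13 and 0.15. Among the 9 clock genes, the nearest to Arntl was Clock, at rank 678, and the nearest to Nr1d1 was also Clock, at rank 1043, with Dbp at rank 1082 and Arntl at rank 1097.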

How the data were processed

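Each of 4 Affymetrix whole-transcript arrays carried pooled RNA of 3 livers of 1 genotype. The deposited intensity values came from RMA in Affymetrix Expression Console 1.1, per the submitters' processing notes, and are whole numbers from 6 to 22355, that is, linear, so log2 was taken first. No label or header used here names the genome build of the probe sets.

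Of 35556 rows, 21789 had exactly 1 gene symbol in GEO's platform annotation, 1621 several and 12146 none; 21698 of the 21789 matched the RefSeq table of GRCm38.p6 by gene identifier, and no symbol changed. Only these rows were used (19938 genes, 999 with several rows). Arrays correlated at r of 0.970 to 0.988 (log2).

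limma 3.58.1 in R 4.3.3 (lmFit and eBayes, 4.34 prior degrees of freedom) tested genes whose highest array reached 100, with Benjamini-Hochberg adjustment over all of them and a threshold of 0.05; the script was tested on simulated data. P-values rest on departures of these 4 pools from additivity, combined with the variance of other genes. They do not measure the spread between pools of the same genotype. Alternatives were other level filters, a 2-fold threshold, cyclic loess, median or hepatocyte centring, the mean of a gene's rows, and limma with trend and robust settings.

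The clock genes and all gene lists were chosen with earlier results of these data known. Named are all clock genes, the targeted and sex-linked genes, up to 4 genes per other list with the largest pairwise difference, and the 3 nearest profiles of clock genes spanning 1 log2 unit.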

Additional observations from a re-analysis of the deposited data

Results flagged for a closer look

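Nr1d1 and Ciart each had differences of at least 1.5-fold in opposite directions under the same loss. Nr1d1 was higher by 0.96 on the log2 scale in the GHR-null than in the wild-type pool, and the difference of the double-null from the MDR2-null pool was -1.03. Ciart differed by -0.71 between the MDR2-null and wild-type pools and by 0.59 between the double-null and GHR-null pools. With 1 array on each side the difference between backgrounds was not tested. Both Ciart differences were under 1.5-fold with hepatocyte centring, at -0.57 and 0.58, and with the mean of its rows, at -0.56 and 0.44. In the second row of Ciart the MDR2-null difference was -0.42, and the levels of the other comparison are under 100.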

How the results depend on the processing

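All 180 recomputed pairwise differences of the 9 clock genes under cyclic loess, both centrings and the mean of all rows moved by less than 0.23. No difference of at least 1.5-fold changed sign. Most of this outcome was fixed in advance. Either centring shifts all genes of a comparison alike, by at most 0.14, and the mean of all rows can change only Ciart. Only the cyclic loess values, and those of Ciart with the mean of all rows, could have moved further. Counts of clock genes apart that moved by more than 1.5 times are given first. With the filter at the 75th percentile (intensity 329), which leaves fewer genes, they were 1 for MDR2-null against wild type, 1 for double-null against MDR2-null, 3 for double-null against wild type and 2 for double-null against GHR-null. At 2-fold they were 1 for MDR2-null and 1 for GHR-null against wild type, 1 for double-null against MDR2-null, 2 for double-null against wild type and 3 for double-null against GHR-null. Median centring gave 2 for GHR-null against wild type and 1 for double-null against MDR2-null, and cyclic loess 1 for the latter. Smaller moves were to 3 for GHR-null against wild type at the 75th percentile and with cyclic loess, to 2 for MDR2-null against wild type with the mean of all rows, and to 4 for double-null against GHR-null with hepatocyte centring and with the mean of all rows. With hepatocyte centring the 3 genes apart for MDR2-null against wild type held Per2 in place of Ciart. Clock genes called by limma for MDR2 loss were 0 without a filter, 0 at the 75th percentile (where Arntl and Per1 are not tested) and 1 with cyclic loess. Calls over all genes were 56 for GHR and 404 for MDR2 loss; they were 0 and 0 without a filter, 32 and 69 at the 75th percentile and 143 and 788 with hepatocyte centring, where the cause was not tested. The all-gene median shifted by -0.12 for GHR-null against wild type when arrays were centred on their medians; with hepatocyte centring it shifted by 0.13, 0.14 and 0.12 for MDR2-null, GHR-null and double-null against wild type. The second Ciart row, an alternative chosen after seeing the data, moved 3 of 5 Ciart differences by more than 0.23. No paired analysis was possible because the labels carry no replicate numbers, and no array can be left out, since each genotype has 1. Signal over background is unknown, which limits the double-null level of Arntl and the second row of Ciart, both under 100.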
